A study of Populus trichocarpa and Populus tremula x Populus alba with 22 samples.

Results

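The genes described here are the 8 assigned to the proanthocyanidin branch of flavonoid synthesis, out of 42950 genes in each table. They were chosen by identifier, as the copies of dihydroflavonol 4-reductase (DFR), anthocyanidin synthase (ANS), anthocyanidin reductase (ANR) and leucoanthocyanidin reductase (LAR). They are DFR1 (Potri.002G033600), DFR2 (Potri.005G229500), an ANS pair here called ANS-a (Potri.003G119100) and ANS-b (Potri.001G113100), ANR1 (Potri.004G030700), LAR1 (Potri.008G116500), LAR2 (Potri.010G129800) and LAR3 (Potri.015G050200). The names come with the selection of the identifiers. The tables themselves hold identifiers alone, and 0 of the 8 had an entry in the RefSeq gene table used here, so positions and sequences are not given.

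Proanthocyanidins, the condensed tannins that poplars store in leaves and stems, are polymers of flavan-3-ols. The branch that makes these units starts with DFR, which reduces dihydroflavonols to leucoanthocyanidins. From there, LAR forms catechin, while ANS forms anthocyanidins, which ANR turns into epicatechin. DFR and ANS also serve the anthocyanin pigments, whereas LAR and ANR are specific to flavan-3-ols.

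RNA-seq was run on 22 poplar libraries in 8 groups. In the Fe experiment, Populus trichocarpa grew in hydroponics for 21 days with 0 µM Fe (Fe-deprived plants P7, P22 and P30) or 10 µM Fe (control plants P11, P13 and P17). From each of these 6 plants the young leaf and 3rd internode were sequenced, so that each tissue had 3 libraries at each Fe level. In the overexpression experiment, the hybrid Populus tremula x Populus alba carried a PtrbHLH011 overexpression construct (OE) or an empty vector (EV), and leaf (3 libraries per genotype) and stem (2 per genotype) of 4-month-old plants were sampled. PtrbHLH011 belongs to the basic helix-loop-helix family of transcription factors. The labels give neither the promoter of the construct nor the number of transgenic lines. The OE libraries carry a common name stem, and so do the EV libraries. An effect of the construct and a difference between lines therefore cannot be told apart. The labels call the OE and EV libraries biological replicates without naming plants, so their p-values cover the spread between these libraries only.

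The deposited values are normalized counts, gene counts divided by a size factor per library, with each of the 4 tissue comparisons in a table of its own. Dividing by the step between values returned whole reads, 29840597 to 68689878 per library in the Fe experiment and 26620695 to 30101710 in the overexpression experiment. Each table was tested with limma on log2(normalized count + 1), for genes with a value of at least 10 in as many libraries as the smaller group holds. A gene was called at a Benjamini-Hochberg adjusted p under 0.05 over all genes tested in its table. Errors of log2 fold changes are standard errors (SE). No gene name table covered the identifiers, so the tissue labels, the Fe state and the PtrbHLH011 level could not be checked against marker genes. In whole tissue, fewer cells of a type and less RNA per cell cannot be told apart.

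In the young leaf, DFR2, ANR1 and all 3 LAR genes fell in Fe-deprived plants, by 10.5-fold for ANR1 to 201-fold for LAR3 on the log2(value + 1) scale. As plain ratios of group means, the control leaves were 8.69-fold (LAR2) to 59.9-fold (LAR3) higher. These 5 of 8 members compare with 3.27% of the 28632 genes tested that were called lower (6.31% were called in either direction). LAR3, counted among them, passed the filter only with the help of its control leaves. DFR1, ANS-a and ANS-b had negative log2 fold changes as well but missed the threshold. The median log2 fold change of the 8 genes was -4.02, beside -0.01 over all genes tested. For 6 of the 8 genes every Fe-deprived leaf was below every control leaf, a pattern that 15.6% of all tested genes showed. Summed over the 8 genes, 153, 34.9 and 65.2 reads per 1000000 recovered reads (RPM) came from the Fe-deprived leaves P7, P22 and P30, against 1211, 345 and 304 RPM from the control leaves P11, P13 and P17.

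At the head of the branch, DFR1 had 507, 10.9 and 62.1 normalized counts in Fe-deprived leaves, against 3585, 455 and 611 in control leaves. The Fe-deprived leaf P7 lay above the control leaf P13, so the groups overlapped. Its log2 fold change was -3.78 ± 1.33 (SE; 95% interval -6.87 to -0.70; limma adjusted p = 0.126). DFR2 had 199.8, 9.12 and 52.5 normalized counts in Fe-deprived leaves, against 3952, 1136 and 1060.4 in control leaves. Every Fe-deprived leaf was below every control leaf. DFR2 fell by 5.14 ± 1.02 on the log2 scale (95% interval -7.51 to -2.77; limma adjusted p = 0.0337), and 0.105% of the tested genes had a lower log2 fold change.

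The ANS pair, which acts on the DFR product, was spread over wide ranges. ANS-a had 170.3, 0 and 11.1 normalized counts in Fe-deprived leaves, against 1477, 62.7 and 122 in control leaves. The 0 in P22 allows up to 2.74 normalized counts (3 reads, counting error only), and P7 exceeded 2 of the 3 control leaves. The log2 fold change of ANS-a was -4.15 ± 1.86 (95% interval -8.48 to 0.18; limma adjusted p = 0.216). ANS-b had 3099, 1184 and 2323 normalized counts in Fe-deprived leaves, against 21794, 6012 and 5865 in control leaves. Its groups did not overlap, but with a log2 fold change of -2.16 ± 0.55 (95% interval -3.45 to -0.88; limma adjusted p = 0.0594) it missed the threshold.

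On the epicatechin side, ANR1 had 2511, 426 and 733 normalized counts in Fe-deprived leaves, against 18619.5, 7596 and 6489 in control leaves. All Fe-deprived leaves were below all control leaves, and ANR1 fell by 3.40 ± 0.66 on the log2 scale (95% interval -4.92 to -1.87; limma adjusted p = 0.0315).

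The LAR genes, on the catechin side, were called in the young leaf, with LAR1 close to the threshold. LAR1 had 696, 50.2 and 72.4 normalized counts in Fe-deprived leaves, against 9141, 1707 and 1732 in control leaves. LAR2 had 504, 46.5 and 55.4 normalized counts in Fe-deprived leaves, against 2724, 1354 and 1185 in control leaves. For both genes P7 was the highest of the Fe-deprived leaves and still lay below every control leaf. LAR1 fell by 4.44 ± 1.04 (limma adjusted p = 0.0487) and LAR2 fell by 3.89 ± 0.85 (limma adjusted p = 0.0418) on the log2 scale. LAR3 had 92.8, 1.82 and 0 normalized counts in Fe-deprived leaves, against 4218, 858 and 589 in control leaves. The 0 in P30 allows up to 2.22 normalized counts, and the lowest control leaf was above the highest Fe-deprived leaf. LAR3 fell by 7.65 ± 1.58 on the log2 scale (95% interval -11.33 to -3.97; limma adjusted p = 0.0366), and 2 genes of the 28632 tested had a lower log2 fold change. With 2 and 0 reads in P22 and P30, the size of this change depends on how low values are treated. The log2 fold change of LAR3 was -8.94 with a pseudocount of 0.1, -6.44 with a pseudocount of 5 and -5.95 in edgeR, and the call was lost with the pseudocount of 0.1 (limma adjusted p = 0.0574) and in edgeR (adjusted p = 0.0588). LAR1 lost its call with a pseudocount of 0.1, no filter or quantile normalization (limma adjusted p of 0.053, 0.0522 and 0.0502) and in edgeR (adjusted p = 0.0844), and LAR2 lost it in edgeR (adjusted p = 0.0822). DESeq2 gave no adjusted p for LAR1.

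**Figure D1:**
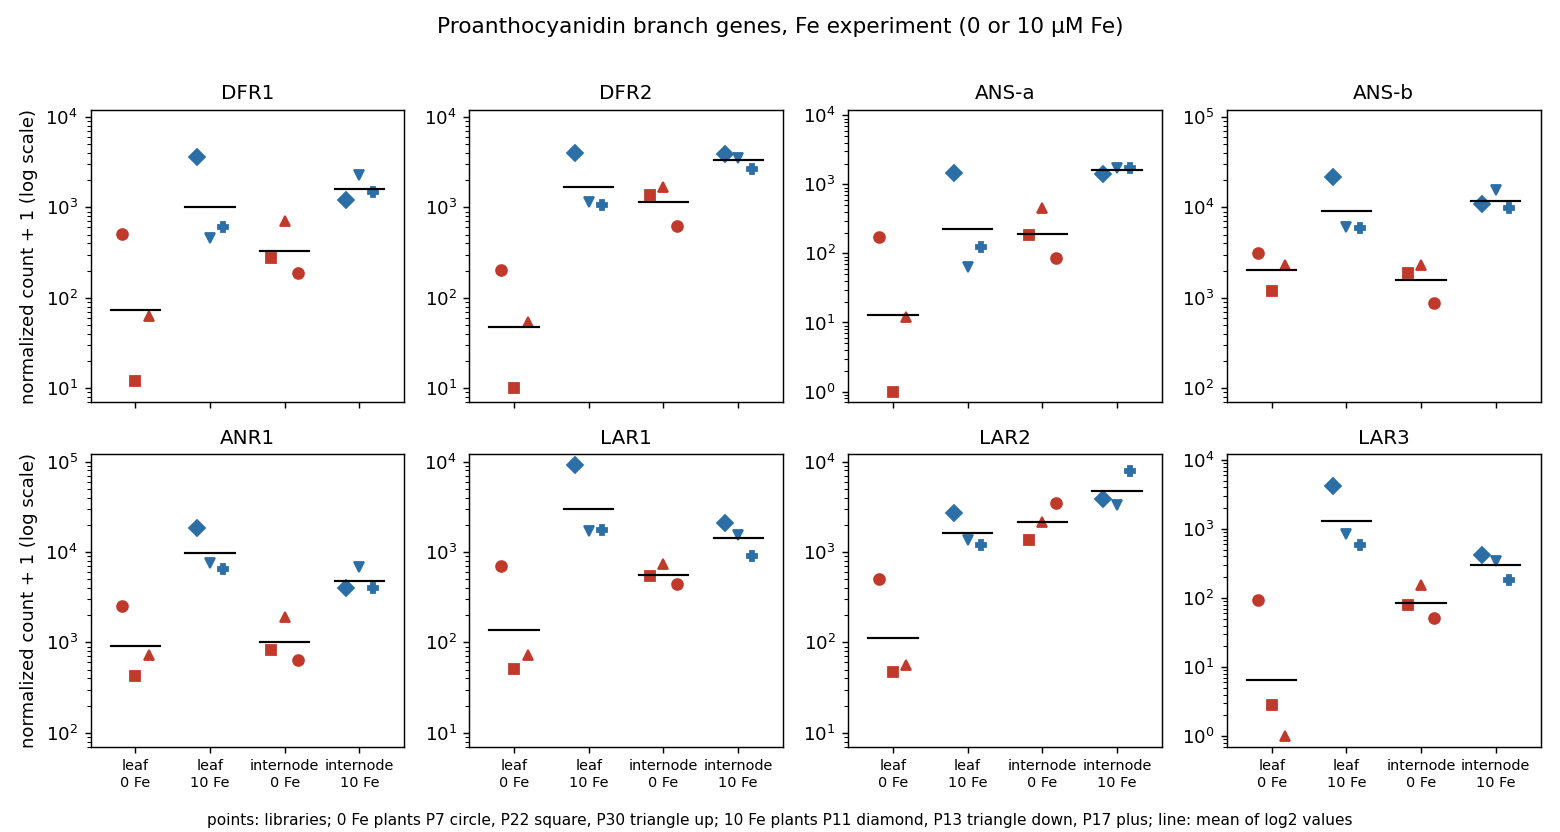
Normalized count plus 1 (log axis) of the 8 genes in each library of the Fe experiment, young leaf and 3rd internode, Fe-deprived left of control, with lines at the mean of log2 values. In the young leaf 6 of the 8 genes have no overlap between groups, and in the internode 7 of the 8, beside 15.6% and 12.7% of all tested genes that were lower in this way.

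Values of the 8 genes moved together between plants of the same Fe level. The control leaf P11 had the highest value of the 3 control leaves for 8 of 8 genes, at 2.15 to 16.0 times the mean of the other controls. In P7 the value was the highest of the 3 Fe-deprived leaves for 8 of 8 genes, at 1.77 to 102 times the mean of the others. The members' median log2 deviation from the other libraries of the group was 3.40 in P7 and 2.14 in P11. Over all tested genes that deviation had a median of 0.02 and a range of -1.22 to 1.25 (5th to 95th percentile) in P7, and of 0.01 and -1.21 to 0.87 in P11. Without P7, 6 of the 8 genes were called (DFR1 at a limma adjusted p of 0.0356), beside 5.64% of all tested genes called lower in that fit. Without P11, 1 was called (ANR1 at a limma adjusted p of 0.049), beside 3.96% of all tested genes called lower. Leaving out P22, P30, P13 or P17 left 0 members called in limma, beside 0.51%, 0.454%, 0.437% and 0.629% of all tested genes called lower. All 8 log2 fold changes remained negative in each of these fits. edgeR's quasi-likelihood test on the recovered reads called 2 members, DFR2 and ANR1, at adjusted p of 0.0449 and 0.0472, beside 3.34% of all tested genes called lower.

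In the 3rd internode of the same plants, ANS-b was the member that fell in Fe-deprived plants, by 7.63-fold on the log2(value + 1) scale. This is 1 of 8 members, beside 0.264% of the 29219 genes tested called lower (0.712% called in either direction). The log2 fold changes of the other 7 ran from -3.05 for ANS-a to -1.11 for LAR2 and missed the threshold. The median of the 8 was -2.03, beside 0.01 over all genes tested. The 8 genes together had 142, 222 and 137 RPM in the Fe-deprived internodes of P22, P30 and P7, against 585, 724 and 503 RPM in the control internodes of P11, P13 and P17. For 7 of the 8 genes every Fe-deprived internode was below every control internode, a pattern that 12.7% of all tested genes showed.

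DFR1 had 277, 699 and 186 normalized counts in Fe-deprived internodes (P22, P30 and P7, in this order for all genes below), against 1221, 2294 and 1463 in control internodes. DFR2 had 1388, 1699 and 621 normalized counts in Fe-deprived internodes, against 3863, 3534 and 2671 in control internodes. Neither gene's groups overlapped. The log2 fold changes were -2.27 ± 0.51 for DFR1 (limma adjusted p = 0.0924) and -1.55 ± 0.39 for DFR2 (limma adjusted p = 0.111).

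ANS-a had 184, 453 and 85.9 normalized counts in Fe-deprived internodes, against 1411, 1713 and 1716 in control internodes. The control internodes lay close together and apart from the Fe-deprived ones, with a log2 fold change of -3.05 ± 0.56 (limma adjusted p = 0.0658). ANS-b had 1865, 2316 and 872 normalized counts in Fe-deprived internodes, against 10920.1, 15512 and 9883 in control internodes. The groups were well apart, and ANS-b fell by 2.93 ± 0.39 on the log2 scale (95% interval -3.86 to -2.00; limma adjusted p = 0.0397). ANR1 had 815, 1927 and 643 normalized counts in Fe-deprived internodes, against 4039, 6826 and 4023 in control internodes. Its groups did not overlap either, with a log2 fold change of -2.26 ± 0.44 (limma adjusted p = 0.0743).

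LAR1 had 537, 732 and 438 normalized counts in Fe-deprived internodes, against 2074, 1549 and 894 in control internodes. LAR3 had 78.1, 152 and 50.8 normalized counts in Fe-deprived internodes, against 421, 343 and 179 in control internodes. Both genes were lower in every Fe-deprived internode, by margins that were narrow at the control internode P17. The log2 fold changes were -1.35 ± 0.35 for LAR1 (limma adjusted p = 0.117) and -1.79 ± 0.49 for LAR3 (limma adjusted p = 0.132). LAR2 had 1346, 2164 and 3466 normalized counts in Fe-deprived internodes, against 3897, 3329 and 7881 in control internodes. Here P7 exceeded the control internode P13, and the log2 fold change was -1.11 ± 0.44 (95% interval -2.18 to -0.04; limma adjusted p = 0.249).

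Plant P7, whose leaf was the highest of the Fe-deprived leaves for all 8 genes, had the lowest Fe-deprived internode for 7 of the 8, LAR2 excepted. P30 had the highest Fe-deprived internode for 7 of the 8. The control internodes showed no single high plant, with P11, P13 and P17 highest for 3, 3 and 2 genes. Same-numbered internode libraries deviated from their group means together (correlations of 0.271, 0.124 and 0.48 over genes), although the labels do not pair them. Pairs of different number ran from -0.377 to 0.185, and the highest of these, P30 with P11, lay above the same-numbered 0.124. Of the same-numbered correlations the highest, 0.48, was that of replicate 3, P17 and P7, whose internode libraries were registered apart from the others. Whether they were also made apart is not stated, so a plant trait and a library set cannot be told apart there. With the replicate number as a block 3 members were called, beside 0.568% of all tested genes called lower. These were DFR1, ANR1 and ANS-b, at limma adjusted p of 0.0453, 0.0345 and 0.0305. Without 1 library, 0 to 2 members were called in the internode. Whichever Fe-deprived internode was left out, 0 members and 0 genes of the whole table were called, and the same held without P13. Without P11 and P17 there were 1 and 2 members, beside 2.86% and 1.36% of all tested genes called lower. edgeR called 0 members (ANS-b at an adjusted p of 0.0566), beside 0.116% of all tested genes called lower. DESeq2 called 7, beside 5.77% of all tested genes called lower.

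**Figure D2:**
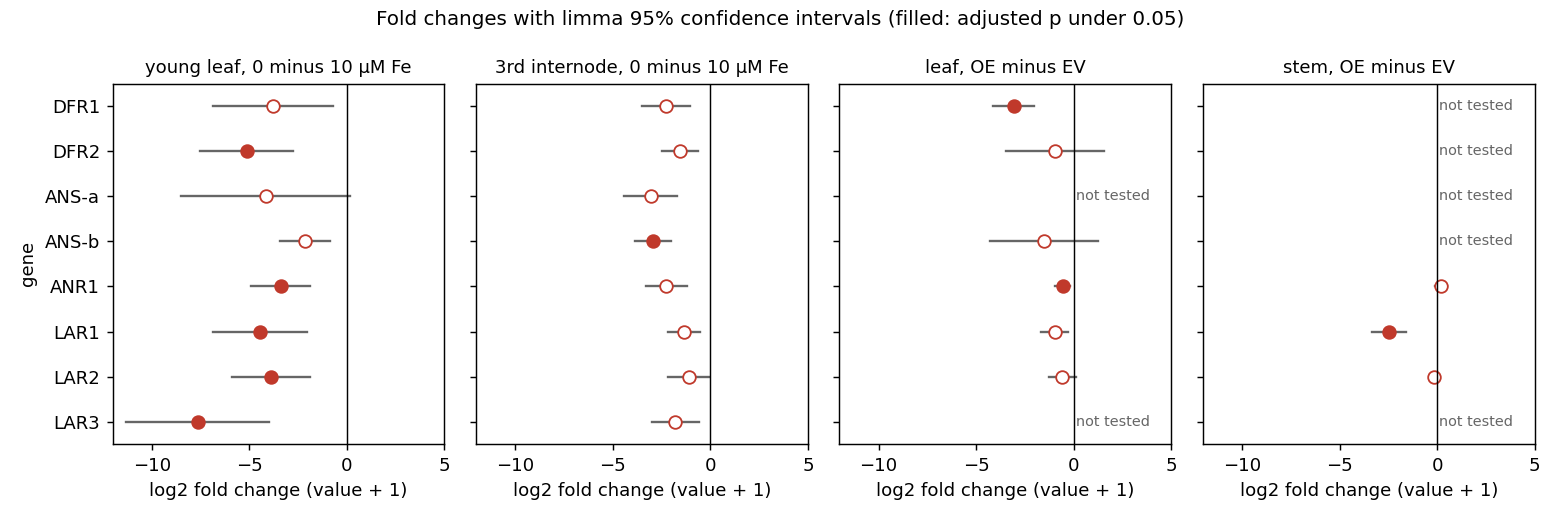
Log2 fold change of each gene (Fe-deprived minus control, OE minus EV; log2 of normalized count + 1) with its 95% interval from limma in the 4 comparisons; filled points are called, and genes below the filter are written as not tested. The Fe-deprived young leaf spans -7.65 (LAR3) to -2.16 (ANS-b), and the internode -3.05 (ANS-a) to -1.11 (LAR2).

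**Figure D3:**
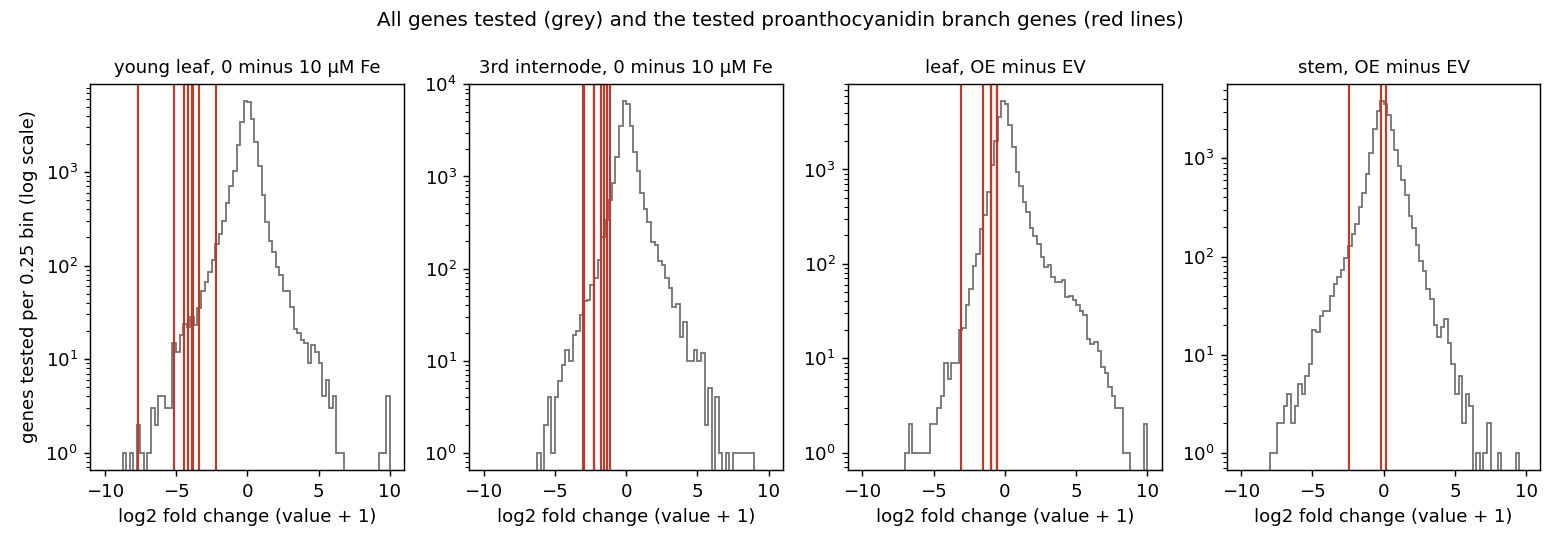
Distribution of log2 fold changes over all genes tested in each comparison, as a step histogram with values past the axis limits in the end bins, and the members that were tested as red lines. The members' median lies at -4.02 in the young leaf and -2.03 in the internode, beside medians of -0.01 and 0.01 over all genes.

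Since leaf and internode came from the same plants, the Fe response of the 2 tissues was compared through the leaf minus internode difference of log2 values within each plant. A negative difference means a lower log2 fold change in the leaf. None of the 8 differences was called (0 of 8 members, beside 0.494% of the 27351 genes tested), with limma adjusted p from 0.193 to 0.845. At an unadjusted p under 0.05 there were 4 of 8 members, DFR2, LAR1, LAR2 and LAR3, beside 15.6% of the genes tested.

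LAR3 had a leaf minus internode log2 difference of 0.86, -4.81 and -7.26 in the Fe-deprived plants P7, P22 and P30, against 3.32, 1.32 and 1.71 in the control plants P11, P13 and P17. The leaf held more LAR3 than the internode in every control plant and in P7 of the Fe-deprived plants. The estimate for LAR3 was -5.85 ± 1.91 and was not called (95% interval -10.40 to -1.31; limma adjusted p = 0.228). LAR2 had an estimate of -2.77 ± 0.83, not called either (95% interval -4.74 to -0.81; limma adjusted p = 0.193), with differences of -2.78, -4.83 and -5.26 in Fe-deprived plants, against -0.52, -1.30 and -2.73 in control plants. For LAR1 the estimate was -3.09 ± 1.14 (95% interval -5.80 to -0.38; limma adjusted p = 0.27), and for DFR2 it was -3.60 ± 1.32 (95% interval -6.73 to -0.46; limma adjusted p = 0.267).

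The estimates were -1.51 for DFR1, -1.10 for ANS-a and -1.14 for ANR1, and that of ANS-a turned positive without P22 (0.70) or P11 (0.35). ANS-b was the member with a positive estimate, 0.77 (95% interval -1.16 to 2.70; limma adjusted p = 0.679), an interval that holds differences in either direction. P7 had the highest leaf minus internode difference of the Fe-deprived plants for all 8 genes. The P7 leaf was itself the highest of the Fe-deprived leaves for all 8 genes, and the P7 internode was the lowest for 7. For LAR2 the P7 internode was the highest Fe-deprived internode (3466 normalized counts), which lowers the difference. The P7 internode, unlike its leaf, was among the libraries registered apart. For the internode values, plant and library set therefore cannot be told apart. Why the P7 leaf was high was not tested.

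**Figure D4:**
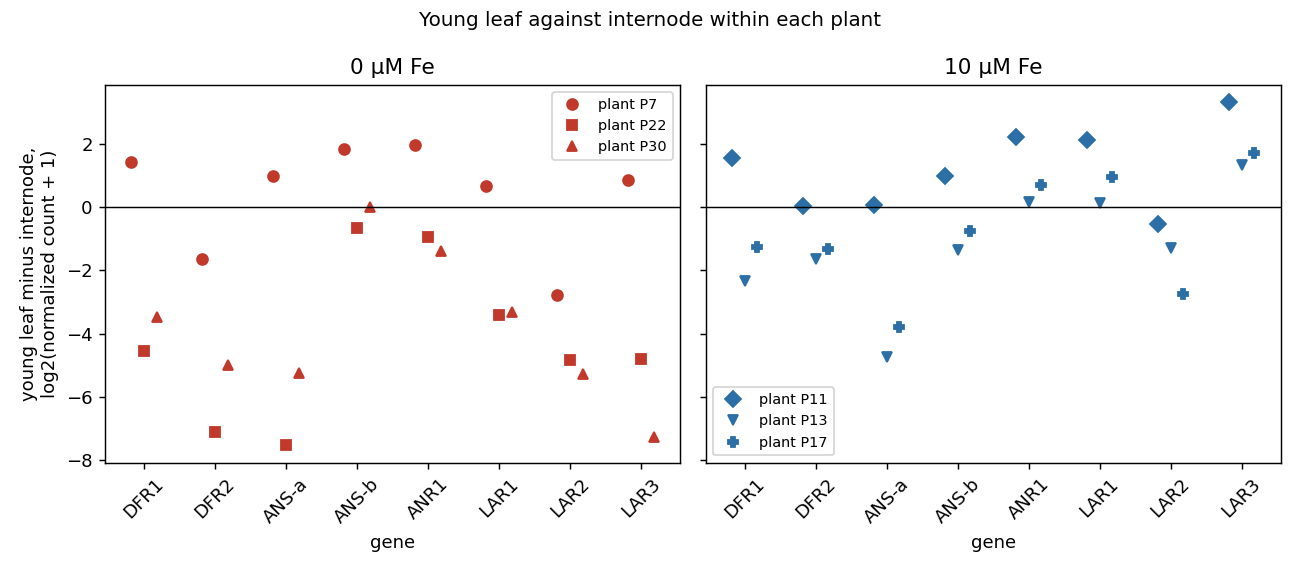
Leaf minus internode difference of log2(normalized count + 1) for each gene within each plant, Fe-deprived plants left of control plants. For LAR3 the Fe-deprived plants sit at 0.86, -4.81 and -7.26 and the control plants at 3.32, 1.32 and 1.71.

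In leaves overexpressing PtrbHLH011, DFR1 fell by 8.45-fold and ANR1 by 1.47-fold on the log2(value + 1) scale. These were 2 of the 6 members that passed the filter, beside 8.61% of the 27024 genes tested called lower and 21.3% called in either direction. DFR1 passed the filter through its EV leaves alone. ANS-a and LAR3 stayed below the filter, so their levels are given without a call. In total 104, 21.8 and 19.0 RPM came from the 8 genes in OE leaves, against 71.3, 57.3 and 30.9 RPM in EV leaves, and these ranges overlapped.

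DFR1 had 8.57, 7.79 and 3.73 normalized counts in OE leaves, against 71.9, 83.4 and 38.1 in EV leaves. The groups were far apart although the OE values were under the filter minimum of 10. DFR1 fell by 3.08 ± 0.45 on the log2 scale (95% interval -4.13 to -2.03; limma adjusted p = 0.00363), and it was called in each of the 6 fits without 1 library (limma adjusted p 0.00421 to 0.0213). These fits kept the gene filter set with all 6 libraries, so they are not independent support for the call. DFR1 passed the filter through the EV leaves alone. With OE values this low, it could be tested only because every EV leaf was at 10 or above. With a filter at 50 it was not tested. DFR2 had 215, 52.6 and 6.53 normalized counts in OE leaves, against 136, 109 and 42.4 in EV leaves. OE leaf 1 was the highest of all 6 leaves and OE leaf 3 the lowest, with a log2 fold change of -0.97 ± 1.09 (95% interval -3.49 to 1.56; limma adjusted p = 0.561). The sign turned without OE leaf 3, to a log2 fold change of 0.31, and edgeR gave -0.03.

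ANS-b had 1976, 109 and 56.9 normalized counts in OE leaves, against 1264, 699 and 344 in EV leaves. OE leaf 1 again stood above all other leaves while OE leaves 2 and 3 stood below all EV leaves, and the log2 fold change was -1.53 ± 1.19 (95% interval -4.29 to 1.22; limma adjusted p = 0.393). In edgeR the log2 fold change was -0.07. Without OE leaf 1, ANS-b was called (limma adjusted p = 0.0134). ANS-a had 0, 0 and 1.87 normalized counts in OE leaves, against 4.11, 8.13 and 0 in EV leaves, all but 2 of them at or under the level that 3 reads give.

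ANR1 had 289, 327 and 286 normalized counts in OE leaves, against 446, 521 and 373 in EV leaves. The OE leaves lay close together and below all EV leaves, and ANR1 fell by 0.56 ± 0.17 on the log2 scale (95% interval -0.94 to -0.17; limma adjusted p = 0.0487). This call was lost in 5 of the 6 fits without 1 library and in edgeR (adjusted p = 0.0514). Among the LAR genes, LAR1 had 55.2, 38.0 and 32.7 normalized counts in OE leaves, against 71.9, 103 and 73.9 in EV leaves. Its groups did not overlap, and the log2 fold change of -0.98 ± 0.30 (95% interval -1.68 to -0.28; limma adjusted p = 0.0538) was just outside the threshold. LAR2 had 81.9, 70.1 and 88.7 normalized counts in OE leaves, against 102, 179 and 94.6 in EV leaves. Its groups were separate by a narrow margin, with a log2 fold change of -0.58 ± 0.29 (95% interval -1.26 to 0.10; limma adjusted p = 0.195). LAR3 had 2.86, 4.87 and 3.73 normalized counts in OE leaves, against 9.25, 9.15 and 5.44 in EV leaves. The EV leaves were higher without overlap, at levels of few reads. Of the 6 tested members, 4 were lower in every OE leaf than in every EV leaf, a pattern that 19.1% of all tested genes showed.

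**Figure D5:**
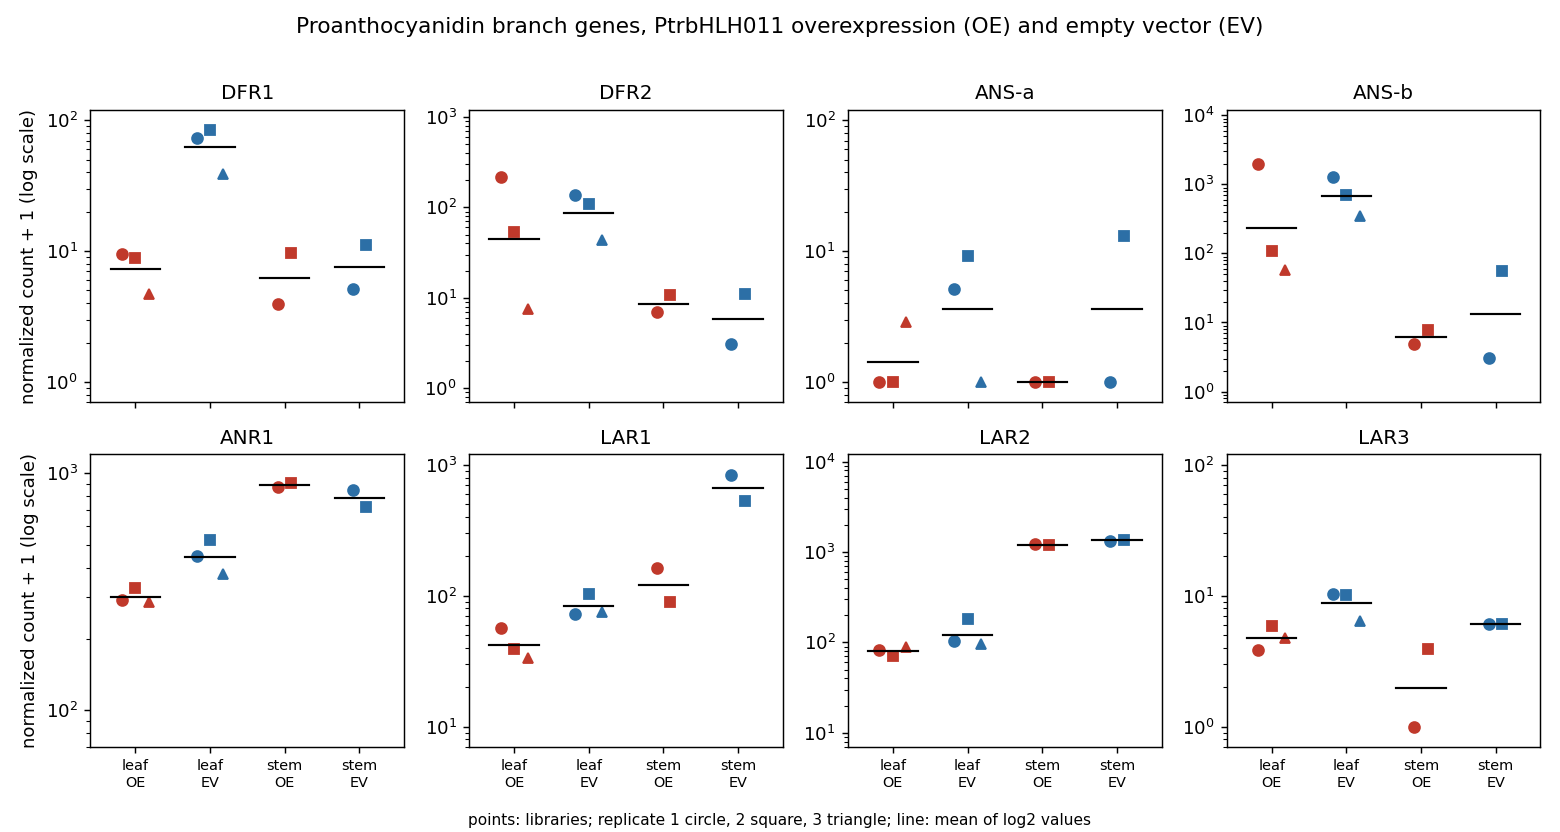
Normalized count plus 1 (log axis) of the 8 genes in each library of the overexpression experiment, leaf and stem, OE left of EV, with lines at the mean of log2 values. DFR1 in OE leaves (3.73 to 8.57) lies below EV leaves (38.1 to 83.4), and LAR1 in OE stems (88.6 and 162) lies below EV stems (530.3 and 841).

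In stems, LAR1 fell by 5.53-fold on the log2(value + 1) scale in OE plants. LAR1, LAR2 and ANR1 passed the filter, and LAR1 was the 1 of these 3 that was called, beside 17.2% of the 24810 genes tested called lower and 37.2% called in either direction. LAR1 had 162 and 88.6 normalized counts in OE stems, against 841 and 530.3 in EV stems. Both OE stems were well below both EV stems, and LAR1 fell by 2.47 ± 0.35 on the log2 scale (95% interval -3.33 to -1.60; limma adjusted p = 0.00538). Without OE stem 2 the call was lost (limma adjusted p = 0.0582), in a fit in which 1 gene of the whole table was called and the lone OE stem was assumed to vary like the EV stems.

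LAR2 had 1215 and 1185 normalized counts in OE stems, against 1339 and 1344 in EV stems. The OE stems were lower by a small amount, with a log2 fold change of -0.16 ± 0.09 (95% interval -0.38 to 0.06; limma adjusted p = 0.208). ANR1 had 873 and 911 normalized counts in OE stems, against 849 and 722 in EV stems. Both OE stems were above both EV stems, with a log2 fold change of 0.19 ± 0.12 (95% interval -0.11 to 0.48; limma adjusted p = 0.263). With 2 libraries per group, 36.9% of the tested genes were lower and 37.2% higher in OE stems without overlap.

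The other 5 members were near the limit of detection in stems. DFR1 had 2.97 and 8.67 normalized counts in OE stems, against 4.10 and 10.1 in EV stems. DFR2 had 5.94 and 9.63 normalized counts in OE stems, against 2.05 and 10.1 in EV stems. For both genes the second library of each genotype was the higher and the groups overlapped. ANS-b had 3.96 and 6.74 normalized counts in OE stems, against 2.05 and 55.6 in EV stems. ANS-a had 0 normalized counts in both OE stems, against 0 and 12.1 in EV stems. EV stem 2 thus stood above the other stems for the ANS pair. LAR3 had 0 and 2.89 normalized counts in OE stems, against 5.13 and 5.05 in EV stems, at or near the level of 3 reads, which is 2.97 and 2.89 in the OE stems and 3.08 and 3.03 in the EV stems.

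The OE effect could be compared between leaf and stem for the 3 members tested in both tissues. ANR1 and LAR1 differed (2 of 3 members, beside 36.2% of the 23372 genes tested, 18.8% with a lower and 17.3% with a higher effect in leaf). The ANR1 effect was lower in leaf than in stem by 0.75 ± 0.22 on the log2 scale (difference -0.75, 95% interval -1.24 to -0.25; limma adjusted p = 0.0264). The LAR1 effect was less negative in leaf than in stem, by 1.49 ± 0.49 (95% interval 0.39 to 2.58; limma adjusted p = 0.0383). For LAR2 the difference was -0.42 ± 0.36 (95% interval -1.21 to 0.37; limma adjusted p = 0.383). This fit took a common variance for both tissues and did not pair plants. Each call was lost in 5 of the 10 fits without 1 library. That of ANR1 was lost without OE leaf 3, EV leaf 2, OE stem 1, OE stem 2 or EV stem 2 (limma adjusted p up to 0.106). That of LAR1 was lost without OE leaf 1, EV leaf 1, EV leaf 3, OE stem 2 or EV stem 1 (limma adjusted p up to 0.164), and with quantile normalization (0.0671).

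Ratios between members of the same enzyme family were taken within each library, as differences of log2(normalized count + 1). Where LAR3 had 2 or 0 reads, in P22 and P30, its ratios depend on the pseudocount. In the young leaf, log2 LAR3 minus log2 LAR2 was -4.11 ± 1.70 in Fe-deprived plants and -0.34 ± 0.86 in control plants (SD, n = 3 each; exact two-sided permutation test, p = 0.1). Log2 LAR3 minus log2 LAR1 was -4.42 ± 1.67 in Fe-deprived leaves and -1.22 ± 0.30 in control leaves (SD, n = 3 each; exact permutation p = 0.1). The ratio of DFR1 to DFR2 went the other way, with log2 values of 0.61 ± 0.63 in Fe-deprived leaves and -0.75 ± 0.59 in control leaves (SD, n = 3 each; exact permutation p = 0.1). These 3 ratios did not overlap between groups, but 0.1 is the smallest p that 3 against 3 libraries allow, and after adjustment over the 13 ratios compared none was below 0.433. The internodes of the same plants had the opposite direction for DFR1 to DFR2, with overlap. There its log2 values were -1.78 ± 0.52 in Fe-deprived and -1.05 ± 0.54 in control plants (SD, n = 3 each; exact permutation p = 0.2). In OE stems the log2 ratio of LAR1 to LAR2 was -3.31 ± 0.59, against -1.01 ± 0.47 in EV stems (SD, n = 2 each; exact permutation p = 0.333, the smallest possible).

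Levels over all 8 groups were set side by side as RPM. The 4 tables were normalized separately and the experiments differ in species, RNA kit and sequencing platform, so this order is a description with no test. The highest group was the control internode for 5 genes and the control young leaf for 3 (ANR1, LAR1 and LAR3). LAR3 averaged, from low to high, 0.0504 RPM in OE stems, 0.145 in OE leaves, 0.168 in EV stems, 0.264 in EV leaves, 0.619 in Fe-deprived leaves, 2.04 in Fe-deprived internodes, 6.35 in control internodes and 34.5 in control leaves. The control leaves lay above all other groups without overlap, while Fe-deprived leaves overlapped EV leaves and Fe-deprived internodes.

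DFR1 averaged 0.201 RPM in OE stems, 0.237 in EV stems, 0.255 in OE leaves, 2.15 in EV leaves, 3.79 in Fe-deprived leaves, 8.45 in Fe-deprived internodes, 28.3 in control leaves and 32.9 in control internodes. Between neighbours in this order, the separate ranges were those of OE and EV leaves. DFR2 averaged 0.268 RPM in OE stems, 0.204 in EV stems, 1.71 in Fe-deprived leaves, 3.54 in OE leaves, 3.20 in EV leaves, 27.0 in Fe-deprived internodes, 37.2 in control leaves and 67.0 in control internodes. The step to the Fe-deprived internodes, and no other between neighbours, had separate ranges.

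ANS-a had no read in OE stems and averaged 0.0246 RPM in OE leaves, 0.137 in EV leaves, 0.205 in EV stems, 1.19 in Fe-deprived leaves, 5.27 in Fe-deprived internodes, 10.2 in control leaves and 31.7 in control internodes. The control internodes stood apart and the other neighbours overlapped. ANS-b averaged 0.185 RPM in OE stems, 0.972 in EV stems, 28.0 in OE leaves, 25.7 in EV leaves, 36.8 in Fe-deprived internodes, 43.5 in Fe-deprived leaves, 204 in control leaves and 241 in control internodes. Its levels fell into 3 ranges without overlap between neighbours, the stems of the hybrid, then the hybrid leaves with both Fe-deprived tissues, then both control tissues of Populus trichocarpa.

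ANR1 averaged 11.5 RPM in OE leaves, 14.8 in EV leaves, 24.1 in Fe-deprived leaves, 24.6 in Fe-deprived internodes, 30.6 in OE stems, 26.0 in EV stems, 98.7 in control internodes and 197 in control leaves. OE leaves lay below EV leaves, EV below OE stems, and the control tissues above the rest, while the Fe-deprived tissues overlapped their neighbours. LAR1 averaged 1.61 RPM in OE leaves, 2.74 in EV leaves, 4.29 in OE stems, 5.37 in Fe-deprived leaves, 12.4 in Fe-deprived internodes, 22.6 in EV stems, 30.4 in control internodes and 76.5 in control leaves. Separate neighbours were OE and EV leaves, and Fe-deprived internodes and EV stems. LAR2 averaged 3.08 RPM in OE leaves, 3.97 in Fe-deprived leaves, 4.15 in EV leaves, 31.7 in control leaves, 41.2 in OE stems, 44.4 in EV stems, 50.5 in Fe-deprived internodes and 96.2 in control internodes. Its leaf groups other than control were separate from the control leaves, and OE stems from EV stems.

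Across all 22 libraries, with values centred within each table, each member was compared with the mean profile of the other 7. Pearson's r was 0.93 for ANR1, 0.92 for DFR1, 0.90 for LAR1 and LAR3, 0.89 for DFR2, 0.88 for LAR2 and ANS-a, and 0.68 for ANS-b. The libraries share plants, tables and treatments, so these r are descriptions. Among 22340 other genes tested in all 4 tables, the 5 with the profile most like the mean of the 8 members had r of 0.89 to 0.90. The closest was Potri.008G040700 (r = 0.90), which averaged 798 ± 494 normalized counts in Fe-deprived and 4146 ± 834 in control young leaves (SD, n = 3 each). Next came Potri.015G007600 (r = 0.89), which averaged 873 ± 379 normalized counts in Fe-deprived and 6271 ± 447 in control young leaves (SD, n = 3 each). In the leaf of the overexpression experiment, Potri.008G040700 averaged 1279 ± 294 normalized counts in OE and 1424 ± 398 in EV plants, a difference smaller than these SDs.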

How the data were processed

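The values are a signal per gene, normalized counts that the authors deposited in 4 tables of 42950 genes, 1 per comparison. The submitters' processing notes list DESeq2 2.11.40.7, StringTie 2.2.1 and HISAT2 2.2.1 but not what each did. Genome build and gene models were not given in the sources used here. How the authors' counting treated strand and near-identical gene copies is not given either, so reads shared between members of a family (the DFR, ANS and LAR genes) could be split among them. The labels' protocols describe Illumina poly(A) libraries for the Fe experiment and, for overexpression, DNBSEQ strand-specific mRNA libraries made with another RNA kit. In each library the values were whole multiples of a common step (100% of them within 0.001), and dividing by the step gave the reads used for depth, RPM (reads scaled to a total of 1000000 per library), floors and count tests. These reads may be rounded estimates, and floors cover counting error only.

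Tests used limma 3.58.1 in R 4.3.3 on log2(value + 1), with the variance allowed to trend with the mean, two-sided, fitted on the whole table. On this scale the fold change of a low gene depends on the pseudocount. Leaf and internode responses to Fe were compared on differences within plants, and the OE effect in leaf and stem in a single fit of 4 groups. Alternatives were edgeR 4.0.16, DESeq2 1.42.0, pseudocounts of 0.1 and 5, no filter, a filter at 50, quantile normalization, upper-quartile rescaling, leaving out each library or plant in turn and a replicate block, with sample weights added after seeing the data. The fits were also run on simulated counts, with genes drawn independently at a fixed spread between libraries. The members here moved together between plants, so that run does not cover their calls. The labels give the plant code of each Fe library and, for young leaf, its column name. Replicate numbers paired no samples by label. Only in the internode did all same-numbered libraries deviate together at correlations over 0.1. In OE leaf these correlations were positive too, the lowest at 0.0466.

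All 8 members are named in every comparison, and of the most similar genes the closest 2 by Pearson's r. The members, the lists and the tests were chosen with earlier results of these data known. Of 10 lists for other pathway genes and tissue markers, 0 had a gene that the gene table names, so none is reported.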

Additional observations from a re-analysis of the deposited data

Results flagged for a closer look

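The OE effect on ANR1 differed between leaf and stem by -0.75 on the log2 scale (limma adjusted p = 0.0264 for the difference itself). ANR1 was lower in 3 of 3 OE leaves and higher in 2 of 2 OE stems than in any EV library of the same tissue. The OE effect on LAR1 differed by 1.49 (limma adjusted p = 0.0383 for the difference itself). LAR1 was lower in every OE library than in every EV library of its tissue, with the larger log2 change in stem. Of all tested genes, 19.1% in leaf and 36.9% in stem were lower without overlap, and 37.2% in stem were higher without overlap. The stem change of ANR1 itself was not called (limma adjusted p = 0.263). Of all genes tested, 36.2% differed between the tissues at this threshold, and neither tissue was sampled with more than 3 libraries per genotype. Each of these calls was lost in 5 of the 10 fits without 1 library, with limma adjusted p up to 0.106 for ANR1 and 0.164 for LAR1, and that of LAR1 also with quantile normalization.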

How the results depend on the processing

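Of 553 recalculated values of single members, 472 kept their direction and side of the threshold, 56 dropped out of the calls, 22 became calls and 3 changed sign. Only members called in the main fit could drop out, so the 56 are not a share of all 553. For LAR1 in the young leaf the call was lost in 4 of 9 alternatives and 5 of 6 fits without 1 library. For DFR1 in OE leaf these numbers were 0 of 9 and 0 of 6. The reversals were DFR2 in OE leaf without OE leaf 3 (0.31, range -2.11 to 0.31 without 1 library) and ANS-a in the Fe response difference without P22 (0.70) or P11 (0.35; range -3.55 to 0.70). The cause was not tested. Members called are given here beside the share of all tested genes called lower. In the Fe-deprived young leaf they numbered 3 with a pseudocount of 0.1 and 2 in edgeR, beside 3% and 3.34%. In the internode they numbered 0 with quantile normalization, 0 in edgeR and 7 in DESeq2, beside 0.322%, 0.116% and 5.77%. In OE leaf they numbered 1 of 8 tested without a filter and 1 of 5 with a filter at 50, beside 6.61% and 9.76%. There edgeR called 1 of 6 and sample weights 5 of 6, beside 8.24% and 21.9%. In the OE effect difference 1 of 3 was called with quantile normalization, beside 36.1% of all tested genes called in either direction.

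Genes called over the whole table numbered 4741 in DESeq2 and 6530 with sample weights in the young leaf, 97 in edgeR, 3326 in DESeq2 and 1485 with sample weights in the internode, and 12199 with sample weights in OE leaf. For the Fe response difference they numbered 72 with a pseudocount of 0.1 and 24 without a filter.

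Without 1 library, called members and genes ranged from 0 to 6 and 236 to 3201 in the young leaf, 0 to 2 and 0 to 1499 in the internode, 1 to 3 and 2766 to 5579 in OE leaf, and 0 to 1 and 1 to 9843 in OE stem. For the OE effect difference the ranges were 0 to 2 and 5329 to 8763, and for the Fe response difference genes ranged from 0 to 156 with 0 members throughout. Fits that left 1 stem library in a group assumed that it varied like the other group.

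With the replicate number as a block, 3 members and 401 genes were called in the internode, 343 genes in the young leaf and 1 gene in the Fe response difference. In the young leaf 7 members were called under the block, but same-numbered libraries shared only a number there (correlations of -0.219, 0.0886 and -0.252). OE leaf had positive correlations throughout (0.286, 0.0466 and 0.11), beside -0.225 to 0.131 for its pairs of different number. In OE stem they were 0.0693. Depth limits ANS-a, LAR3 and, in stem, DFR1, DFR2 and ANS-b in the overexpression experiment, where most libraries held few reads of them.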
